A study of Homo sapiens with 16 samples.

Results

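MHC class I presentation genes encode the proteins that carry peptides from inside a cell to its surface. The 9 genes described here, HLA-B, HLA-C, HLA-E, HLA-F, B2M, TAP1, TAP2, TAPBP and NLRC5, were chosen by symbol and each matched 1 of the 58302 gene identifiers counted. They were measured by RNA-Seq in HEK293 cells, an established line of human embryonic kidney origin. RNA was taken from whole cytoplasmic lysates (Input) and from the pooled heavy fractions of sucrose gradients, which hold mRNAs bound by several ribosomes (Polysome). Cells with the RNA-binding protein Gemin5 silenced by 100 nM of a single siRNA (siRNAG5) were compared with control cells (Ctrl). There were 4 libraries in each of the 4 groups, Input Ctrl, Input siRNAG5, Polysome Ctrl and Polysome siRNAG5, and 16 in all. The sample labels call the Ctrl cells untreated, whereas the treatment protocol and the paper describe a control siRNA, so an effect of transfection itself cannot be told apart from silencing. All cells were treated with cycloheximide before lysis for fractionation, and the replicates are described in the paper as 4 independent biological samples, with Input and Polysome RNA of a sample taken from the same lysate.

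A class I molecule is a heavy chain paired with β2-microglobulin. HLA-B and HLA-C are classical heavy chains, which show peptides to cytotoxic T cells, while HLA-E and HLA-F are less variable heavy chains read largely by natural killer cell receptors. B2M encodes the shared light chain. TAP1 and TAP2 form the transporter that moves peptides from the cytosol into the endoplasmic reticulum, TAPBP encodes tapasin, which bridges the transporter and the waiting heavy chain, and NLRC5 encodes the transactivator of class I promoters. Of the 9 genes, 7 lie in the major histocompatibility complex on chromosome 6, B2M lies on chromosome 15 and NLRC5 on chromosome 16.

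Class I promoters are known for a κB site, an interferon response element and the X2 and Y boxes of the SXY module that NLRC5 acts through. The following stretches, 5′ to 3′ on the strand of the gene, are parts of the promoters and do not show every match. They come from RefSeq on GRCh38.p14, where 7 of the 9 genes matched the promoter table. Capitals mark letter matches in either orientation to GGGGATTCC (κB), to GAAA followed by any 2 bases and GAAA (interferon response), to TGACG (X2) and to CCAAT (Y). The interferon response matches of B2M, TAP1 and TAPBP are pairs that overlap.
HLA-B, chr6:31357294-31357364, minus strand: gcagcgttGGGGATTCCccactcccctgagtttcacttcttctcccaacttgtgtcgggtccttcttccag
HLA-C, chr6:31272138-31272276, minus strand: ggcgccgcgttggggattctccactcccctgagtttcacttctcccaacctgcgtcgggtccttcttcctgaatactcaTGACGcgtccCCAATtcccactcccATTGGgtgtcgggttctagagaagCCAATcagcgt
HLA-F, chr6:29723249-29723305, plus strand: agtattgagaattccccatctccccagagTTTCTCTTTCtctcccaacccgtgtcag
B2M, chr15:44711367-44711396, plus strand: ctctaaGAAAAGGAAACTGAAAacgggaaa
TAP1, chr6:32853817-32853854, minus strand: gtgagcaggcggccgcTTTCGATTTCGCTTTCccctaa
TAP2, chr6:32838780-32838809, minus strand: ggctggggaagcGAAAGCGAAAgctgcccg
TAPBP, chr6:33314079-33314108, minus strand: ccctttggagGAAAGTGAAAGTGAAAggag

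In the 250 bases before the start, the interferon response letters were found in HLA-F, B2M, TAP1, TAP2 and TAPBP, that is in 5 of 7 members, against 3.02% of 35116 promoters. They too were searched in this exact form only. The printed HLA-B and HLA-C stretches each hold a similar run in the reverse orientation that departs from these letters and was not counted. The element is therefore not shown to be absent from HLA-B or HLA-C. The κB letters, searched in this exact form only, were found in HLA-B alone among the members and in 0.253% of promoters. The printed HLA-C stretch holds a run that differs from them in the last letter, which was not counted. The X2 letters were found in HLA-B, HLA-C, B2M and TAP2 (21.2% of promoters), and the Y letters in HLA-B, HLA-C, HLA-F, B2M and TAP1 (32% of promoters). Outside HLA-C, all of these X2 and Y matches lie beyond the printed stretches, as does the most distant Y match of HLA-C. By the GENCODE annotation the printed stretches of B2M, TAP2 and TAPBP lie wholly within exons of coding genes. Those of B2M and TAPBP lie within the span of the gene itself, so these windows before the RefSeq start are not upstream of every transcript. That of TAP2 lies upstream of the span of TAP2, so the exons there belong to another gene. A match is a description of these letters and does not show that a factor binds there. HLA-E and NLRC5 were not matched.

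**Figure D1:**
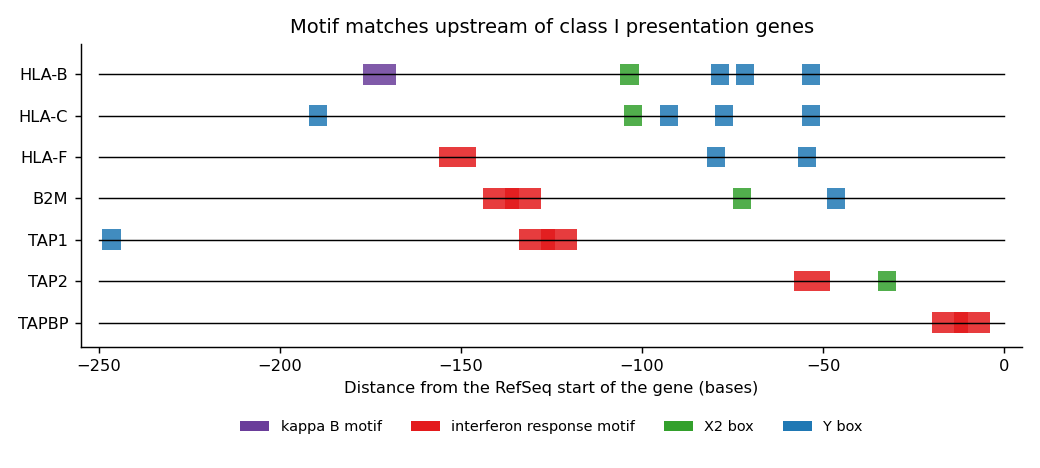
Positions of the motif matches in the 250 bases before the RefSeq start of 7 class I presentation genes, with distance from the start in bases on the horizontal axis and 1 line per gene. The interferon response matches lie between 156 and 5 bases before the start in HLA-F, B2M, TAP1, TAP2 and TAPBP, and the only κB match is that of HLA-B.

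The libraries held between 11145324 and 24511299 reads assigned to genes. GEMIN5 itself fell in siRNAG5 cells, from 17.9 ± 2.32 to 6.72 ± 0.529 CPM in Input (mean ± SD, n = 4) and from 7.44 ± 1.56 to 2.65 ± 0.495 CPM in Polysome (log2 FC -1.40 and -1.44, adjusted p = 3.11e-10 and 0.00477 by edgeR). CPM stands for read counts scaled by TMM to a common library size over the 16 libraries. Of 8 markers of HEK293 cells all had reads in every group. Reads of 14 liver genes, which a HEK293 culture should lack, summed to 1.12 and 2.69 CPM in Input Ctrl 2 and 1, 130 and 149 CPM in Input Ctrl 4 and 3, 79.9 to 166 CPM in the Polysome Ctrl libraries, and at most 1.26 CPM in every siRNAG5 library, where 7 of the 14 genes had 0 reads in each fraction. Thus, in Polysome, liver reads and treatment cannot be told apart, and the Input changes of the members are also given without the 2 Input Ctrl libraries concerned. Summed levels of 14 blood genes were 5.07 to 6.37 CPM in Input Ctrl, 4.16 to 6.24 in Input siRNAG5, 9.41 to 11.2 in Polysome Ctrl and 5.40 to 7.15 in Polysome siRNAG5, and those of 5 endothelial genes stayed at or below 1.17 CPM. Reads aligned to several places made up 4.88 to 6.04% in the Input and 21.2 to 42.4% in the Polysome libraries.

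To place the members on one scale, CPM was divided by the exonic length of each gene (RPKM). In Input Ctrl cells, HLA-C mRNA stood highest at 173 ± 5.41 RPKM (SD, n = 4), followed by B2M at 131 ± 8.26, HLA-B at 38.6 ± 1.46 and HLA-E at 21.4 ± 0.954 RPKM. HLA-F (6.04 ± 0.407 RPKM) and TAP1 (4.45 ± 0.459 RPKM) came next. The remaining genes were scarce, with 0.403 ± 0.0713 RPKM for TAPBP, 0.266 ± 0.0256 for TAP2 and 0.0175 ± 0.00858 for NLRC5. The 4 libraries of each gene did not overlap those of its neighbour in this order, except TAPBP (0.299 to 0.456 RPKM) and TAP2 (0.246 to 0.300 RPKM). The order of the top pair depended on the length used, since with the longest coding transcript B2M stood at 379 and HLA-C at 279 RPKM, and with that length TAPBP (0.577 to 0.879 RPKM) and TAP2 (0.445 to 0.544 RPKM) no longer overlapped.

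Hence the subunits of one complex were far from equal in mRNA. Within a library, TAP1 drew between 6.54 and 9.15 reads for each read of TAP2 in Input Ctrl cells, and between 3.88 and 6 in Polysome Ctrl cells. The annotation places 34.7% of the 100-base stretches of TAP2 also in a readthrough gene, ENSG00000250264, so part of its reads may have been set aside as ambiguous. In HLA-B, 32.8% of exonic bases are shared on the same strand with DHFRP2 and MIR6891, and in HLA-C and HLA-E 0.277% and 0.613% of stretches recur in other class I genes.

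Silencing of Gemin5 was first examined in Input. Of the 9 members 8 had enough reads for the test, and none changed beyond a log2 FC of 0.5 with an adjusted p below 0.05, the rule for a called gene. Of all 14134 genes tested, 16.5% were called. Below that fold, HLA-B, HLA-F, TAP1 and HLA-E had adjusted p values under 0.05 and were all higher in siRNAG5, that is 4 of 8 members, against 17.9% of all genes. By DESeq2 again 0 members were called, and at an unadjusted p below 0.05, whatever the fold, there were 5 of 8, with TAPBP as the addition, against 45.3% of all genes. The median log2 FC was 0.35 over the 8 members and 0.04 over all genes tested. Without the 2 Input Ctrl libraries with liver reads again 0 of 8 were called, with a log2 FC of 0.49 for HLA-F (adjusted p = 0.0019), 0.49 for TAP1 (adjusted p = 0.00425), 0.61 for TAPBP (adjusted p = 0.0874), 0.36 for TAP2 (adjusted p = 0.281), 0.09 for HLA-C (adjusted p = 0.465) and -0.16 for B2M (adjusted p = 0.179, all by edgeR).

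Among the classical heavy chains, HLA-B (ENSG00000234745, chr6:31353872-31367067, minus strand) was at 173, 182, 173 and 186 CPM in the 4 Input Ctrl libraries and at 253, 222, 237 and 212 CPM in Input siRNAG5. Every silenced library was above every control library. Its log2 FC was 0.39 (SE 0.07, 1.31-fold, adjusted p = 2.6e-05 by edgeR) and 0.39 without the 2 libraries with liver reads (adjusted p = 0.00131). As these are bulk samples, more mRNA per cell and more cells that express the gene cannot be told apart.

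HLA-C (ENSG00000204525, chr6:31268749-31272130, minus strand) did not separate in this way. It was at 421, 446, 422 and 444 CPM in Input Ctrl and at 498, 444, 458 and 435 CPM in Input siRNAG5, where only replicates 1 and 3 exceeded the controls. The log2 FC was 0.09 (SE 0.06, adjusted p = 0.237 by edgeR).

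The relation of the pair can be read within each library, where scaling plays no part. HLA-B drew 0.407 to 0.420 reads per HLA-C read in the Input Ctrl libraries and 0.488 to 0.518 in Input siRNAG5, so the groups lay apart with little spread. In Polysome the ratio was 0.329 to 0.405 in Ctrl and 0.336 to 0.440 in siRNAG5, and the groups overlapped because replicate 4 of siRNAG5, at 0.336, lay among the controls while the other three were at 0.431 to 0.440. These ratios were chosen after the values were seen and were not tested.

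**Figure D2:**
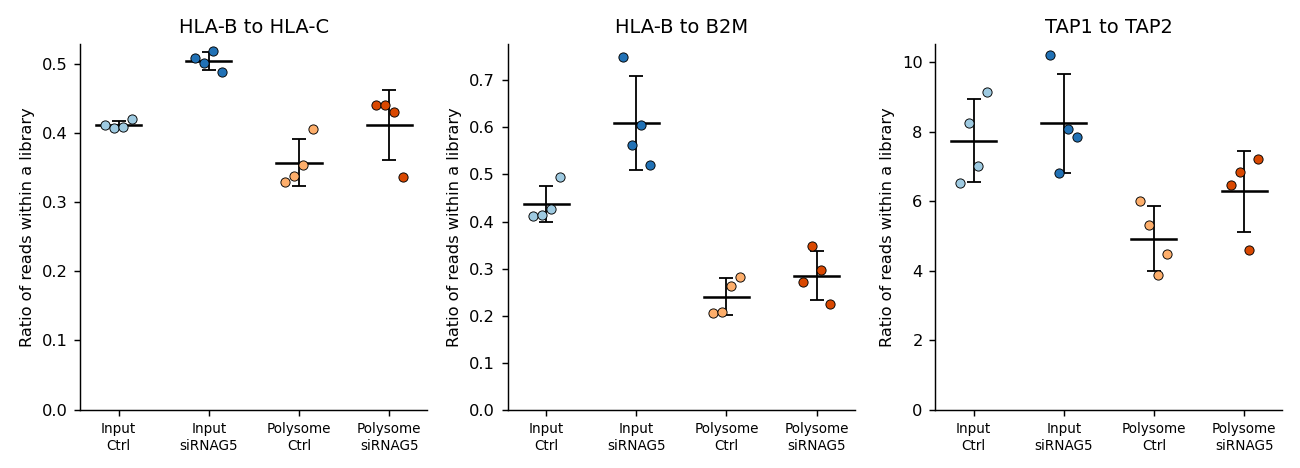
Ratio of the reads of HLA-B to HLA-C, HLA-B to B2M and TAP1 to TAP2 within each library (vertical axis, no unit) for the 4 groups. Points are the 4 libraries, the line is the mean and the bar the SD. In Input the mean of HLA-B to HLA-C was 0.412 ± 0.0058 for Ctrl and 0.504 ± 0.0126 for siRNAG5.

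Of the less variable heavy chains, HLA-F (ENSG00000204642, chr6:29722775-29738528, plus strand) was at 24.7, 25, 28.5 and 26 CPM in Input Ctrl and at 37.6, 36.2, 33.1 and 32.1 CPM in Input siRNAG5, without overlap. The log2 FC was 0.43 (SE 0.09, 1.34-fold, adjusted p = 0.000259 by edgeR). HLA-F exons are overlapped on the opposite strand for 28% of their length, in part by HLA-F-AS1, those of HLA-B for 14.5%, by ENSG00000271581, and those of TAP1 for 14.2%, by PSMB8-AS1. The library protocol keeps the strand, but the strand setting of the counting is not given in the sources used here.

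HLA-E (ENSG00000204592, chr6:30489509-30494194, plus strand) was at 59.1, 62.9, 61.9 and 65.9 CPM in Input Ctrl and at 76.3, 74.2, 71.2 and 64.9 CPM in Input siRNAG5, where replicate 4 fell within the controls. The log2 FC of 0.21 (SE 0.07, adjusted p = 0.023 by edgeR) was the smallest of the 4 with an adjusted p under 0.05. It did not stay there without the libraries with liver reads (log2 FC 0.24, adjusted p = 0.0744) or with all 16 libraries in 1 fit (0.20, adjusted p = 0.199), nor without Input Ctrl replicate 1 (adjusted p = 0.078), Input Ctrl replicate 3 (adjusted p = 0.0617) or Input siRNAG5 replicate 2 (adjusted p = 0.058).

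B2M (ENSG00000166710, chr15:44711358-44718851, plus strand), the light chain needed by the heavy chains, was at 419, 438, 405 and 377 CPM in Input Ctrl and at 337, 395, 392 and 407 CPM in Input siRNAG5, with a log2 FC of -0.09 (SE 0.07, adjusted p = 0.334 by edgeR). In Input, silenced cells had more HLA-B reads per B2M read, 0.521 to 0.750 against 0.413 to 0.494 in Ctrl. The groups did not overlap. HLA-C reads per B2M read overlapped in Input, at 1.00 to 1.18 in Ctrl and 1.07 to 1.48 in siRNAG5. In Polysome, HLA-B reads per B2M read overlapped as well, at 0.205 to 0.283 in Ctrl and 0.224 to 0.348 in siRNAG5.

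**Figure D3:**
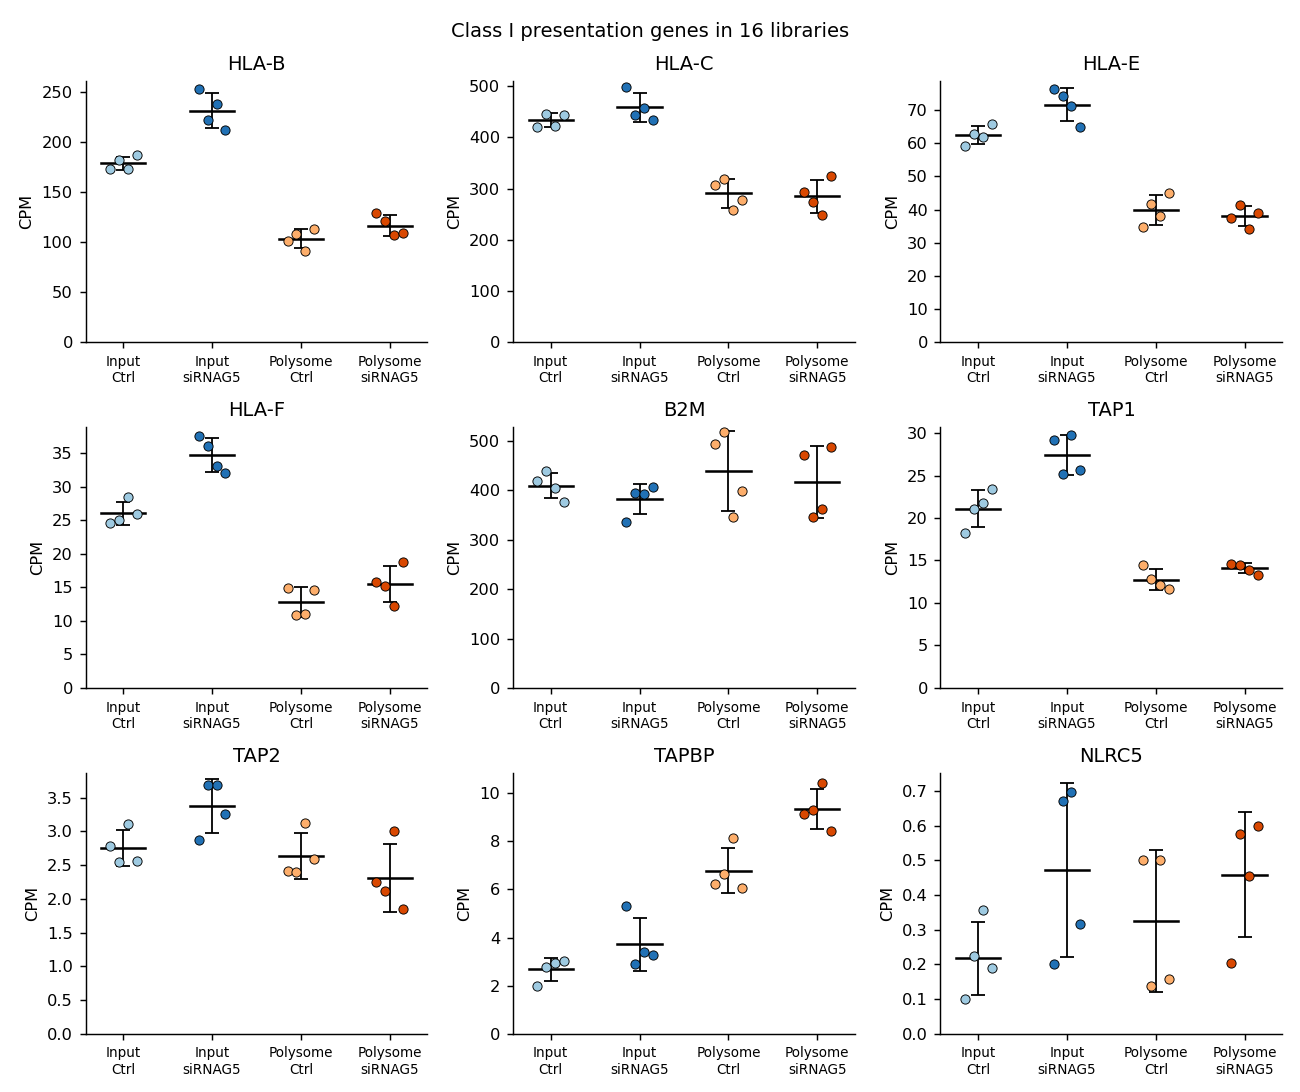
Level of the 9 class I presentation genes in CPM (vertical axes, starting at 0) in the 4 groups of 4 libraries. Points are libraries, the line is the mean and the bar the SD. In Input, HLA-B, HLA-F and TAP1 of siRNAG5 cells lay above all Ctrl libraries, and in Polysome TAPBP did.

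Of the transporter, TAP1 (ENSG00000168394, chr6:32845209-32853816, minus strand) was at 18.2, 21.0, 21.8 and 23.4 CPM in Input Ctrl and at 29.2, 25.2, 29.7 and 25.6 CPM in Input siRNAG5. The groups did not overlap, and the log2 FC was 0.39 (SE 0.10, 1.31-fold, adjusted p = 0.00183 by edgeR). With HLA-B and HLA-F this made 3 of 8 members whose silenced libraries all exceeded the controls, against 15.1% of all genes tested.

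TAP2 (ENSG00000204267, chr6:32821833-32838739, minus strand) rested on 27 to 35 reads per Input Ctrl library and 43 to 74 per Input siRNAG5 library. It was at 2.79, 2.54, 3.11 and 2.56 CPM in Ctrl and at 2.86, 3.69, 3.69 and 3.26 CPM in siRNAG5. The estimate was close to that of TAP1, but with a larger error (log2 FC 0.31, SE 0.18, adjusted p = 0.188 by edgeR), and the groups overlapped.

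TAPBP (ENSG00000231925, chr6:33299694-33314284, minus strand) had the largest estimate of the members and a wide spread, from 20 to 37 reads in Ctrl and 43 to 80 in siRNAG5 libraries of Input. It was at 1.99, 2.77, 2.93 and 3.03 CPM in Ctrl and at 5.33, 2.89, 3.39 and 3.26 CPM in siRNAG5, with replicate 1 of each group standing away from the rest in opposite directions. The log2 FC was 0.47 (SE 0.21, adjusted p = 0.0798 by edgeR). It was 0.57 and called when Input siRNAG5 replicate 2 was left out (adjusted p = 0.0428), and 0.26 when Input siRNAG5 replicate 1 was left out (adjusted p = 0.344).

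NLRC5 (ENSG00000140853, chr16:56989485-57083531, plus strand) was nearly silent. It had 10 reads in the 4 Input Ctrl libraries together, 33 in Input siRNAG5, 19 in Polysome Ctrl and 43 in Polysome siRNAG5, from 1 to 15 per library. Its level was 0.217 ± 0.106 CPM in Input Ctrl and 0.471 ± 0.251 CPM in Input siRNAG5 (exact permutation test, two-sided, n = 4 and 4, p = 0.171, adjusted p = 0.457 over 4 comparisons, where 0.0286 is the smallest p that can be reached). With 4 libraries a group and 4 comparisons this test could hardly pass the threshold, so nothing follows from it about a change of NLRC5.

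In Polysome the same 8 members were tested and again 0 were called, against 7.95% of 14420 genes. By DESeq2 there were 0, and at an unadjusted p below 0.05, whatever the fold, there was 1, TAPBP, against 27.7% of all genes. The median log2 FC was 0.10 over the members and 0.03 over all genes.

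TAPBP was the member that came closest. It was at 6.25, 6.66, 8.15 and 6.06 CPM in Polysome Ctrl and at 9.12, 9.32, 10.4 and 8.44 CPM in Polysome siRNAG5, on 75 to 253 reads per library, so that all silenced libraries lay above all controls, as for 8.29% of genes. The log2 FC was 0.50 (SE 0.16, 1.41-fold, adjusted p = 0.074 by edgeR). It was 0.46 with DESeq2 (adjusted p = 0.045) and 0.47 with 1 surrogate variable in edgeR (adjusted p = 0.00799), in both cases below the fold required.

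HLA-B was at 101, 108, 91.4 and 113 CPM in Polysome Ctrl and at 129, 120, 107 and 109 CPM in Polysome siRNAG5, with overlap and a log2 FC of 0.21 (SE 0.13, adjusted p = 0.312 by edgeR). HLA-F was at 15.0, 10.9, 11.0 and 14.6 CPM in Ctrl and at 15.9, 15.2, 12.2 and 18.8 CPM in siRNAG5 (log2 FC 0.31, SE 0.18, adjusted p = 0.272 by edgeR). TAP1 was at 14.5, 12.8, 12.1 and 11.6 CPM in Ctrl and at 14.6, 14.5, 13.9 and 13.3 CPM in siRNAG5 (log2 FC 0.18, SE 0.14, adjusted p = 0.424 by edgeR). Thus the genes that stood apart in Input overlapped in Polysome, where the error of each estimate was larger. With 1 surrogate variable in edgeR the log2 FC was 0.35 for HLA-F (adjusted p = 0.0362), below the fold required. In that fit it was 0.22 for HLA-B (adjusted p = 0.0864) and 0.20 for TAP1 (adjusted p = 0.18).

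HLA-E had a log2 FC of -0.03 (SE 0.13) in Polysome, on 34.6 to 45.0 CPM in Ctrl and 34.2 to 41.5 CPM in siRNAG5, and TAP2 one of -0.15 (SE 0.22), on 2.40 to 3.13 CPM in Ctrl and 1.84 to 3.01 CPM in siRNAG5. For NLRC5 the exact permutation test gave p = 0.257 (two-sided, n = 4 and 4).

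B2M and HLA-C varied across the Polysome libraries without regard to treatment. B2M was at 493, 518, 347 and 398 CPM in Polysome Ctrl and at 472, 346, 362 and 488 CPM in Polysome siRNAG5, so that replicates 1 and 2 of Ctrl and 1 and 4 of siRNAG5 were high and the other four low. HLA-C was at 308, 319, 258 and 278 CPM in Ctrl and at 293, 274, 249 and 325 CPM in siRNAG5, and the same 4 libraries were the highest. The log2 FC was -0.04 (SE 0.19) for B2M and 0.01 (SE 0.15) for HLA-C.

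**Figure D4:**
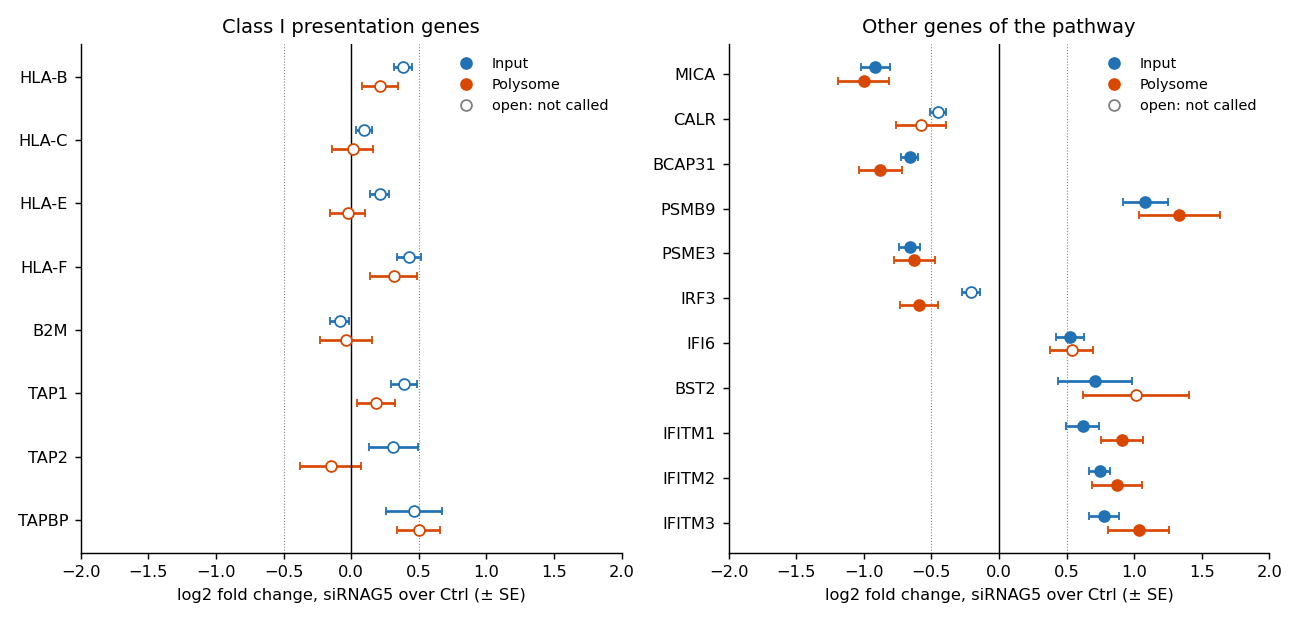
Log2 fold change of siRNAG5 over Ctrl with its SE (horizontal axis) in Input and Polysome for the 8 class I presentation genes tested, at left, and for 11 other genes of the pathway, at right. Filled points are called genes and dotted lines mark 0.5 in either direction. No point of the members is filled, and all 8 lie between -0.15 and 0.50.

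Whether a gene changed by a different amount in Polysome than in Input was tested with all 16 libraries in edgeR. No member was called, and none of the 14958 genes tested was called (0%), with 1089 genes at an unadjusted p below 0.05 and 29 called by DESeq2. The members furthest from 0 were TAP2, with a difference of -0.49 (SE 0.26, adjusted p = 0.731 by edgeR), and HLA-E, with -0.27 (SE 0.14, adjusted p = 0.736). HLA-B (-0.20), TAP1 (-0.23), HLA-F (-0.14) and HLA-C (-0.11) lay on the same side, while B2M (0.02) and TAPBP (0.00) lay near 0. The median difference was -0.17 over the members and -0.06 over all genes. Hence the higher Input estimates of HLA-B, HLA-F and TAP1 were not shown to differ from those in Polysome.

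The clearest contrast of these genes was between the fractions. Relative to all mRNAs, the 4 heavy chains and TAP1 were lower in Polysome than in Input, and TAPBP was higher. In Ctrl cells, 5 of 8 members were called lower, against 18.8% of 13666 genes, and 1 of 8 higher, against 20.8%. In siRNAG5 cells, 5 of 9 were called lower, against 21.2% of 14795 genes, and 1 of 9 higher, against 23.9%. The same genes were called in both. The median log2 FC over the members tested was -0.60 in Ctrl and in siRNAG5 cells, and over all genes -0.03 and -0.04.

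HLA-F was the lowest, at 26 ± 1.75 CPM in Input Ctrl and 12.9 ± 2.23 CPM in Polysome Ctrl (log2 FC -1.01, SE 0.14, adjusted p = 3.24e-05 by edgeR). HLA-B followed, at 178 ± 6.76 and 103 ± 9.18 CPM (log2 FC -0.78, SE 0.11, adjusted p = 4.51e-05). HLA-E went from 62.4 ± 2.79 to 39.9 ± 4.47 CPM (log2 FC -0.63, SE 0.11, adjusted p = 0.000277). For all of these the Polysome and Input libraries of Ctrl cells did not overlap.

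HLA-C was at 433 ± 13.6 CPM in Input Ctrl and 291 ± 27.9 CPM in Polysome Ctrl (log2 FC -0.56, SE 0.12, adjusted p = 0.00141 by edgeR), and its estimate fell just short of the fold, at -0.49, when Polysome Ctrl replicate 3 was left out. TAP1 went from 21.1 ± 2.17 to 12.8 ± 1.25 CPM (log2 FC -0.72, SE 0.13, adjusted p = 0.000384 by edgeR). In siRNAG5 cells the log2 FC was -1.08 for HLA-F, -0.91 for HLA-B, -0.83 for HLA-E, -0.60 for HLA-C and -0.88 for TAP1, all called lower.

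TAPBP behaved in the opposite way. It was at 2.68 ± 0.474 CPM in Input Ctrl and 6.78 ± 0.948 CPM in Polysome Ctrl (log2 FC 1.35, SE 0.19, 2.54-fold, adjusted p = 3.92e-05 by edgeR), and at 3.72 ± 1.10 and 9.33 ± 0.827 CPM in siRNAG5 cells (log2 FC 1.42, SE 0.19, 2.67-fold, adjusted p = 8.88e-05). Per length it stood at 1.02 ± 0.143 RPKM in Polysome Ctrl, above TAP2 at 0.254 ± 0.0327.

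The light chain and the second transporter subunit were called in neither direction. B2M had a log2 FC of 0.11 (SE 0.15, adjusted p = 0.554 by edgeR) in Ctrl and 0.20 (SE 0.14, adjusted p = 0.23) in siRNAG5 cells. TAP2 was at -0.04 (SE 0.21) in Ctrl and -0.46 (SE 0.20, adjusted p = 0.0752) in siRNAG5 cells. It reached -0.62 without Polysome siRNAG5 replicate 3 (adjusted p = 0.027) and -0.55 with all 16 libraries in 1 fit (adjusted p = 0.0141), and was then called lower. NLRC5, tested in siRNAG5 cells alone, was at 0.06 (SE 0.44). With the heavy chains lower and the light chain not, HLA-B reads per B2M read were 0.205 to 0.283 in Polysome Ctrl, below the 0.413 to 0.494 of Input Ctrl. In Polysome Ctrl, B2M (141 ± 25.8 RPKM) and HLA-C (116 ± 11.1 RPKM) overlapped per exonic length, as did HLA-F (2.99 ± 0.517 RPKM) and TAP1 (2.69 ± 0.263 RPKM), whereas per longest coding transcript B2M (321 to 480 RPKM) lay above HLA-C (166 to 205) and HLA-F (7.07 to 9.71) above TAP1 (4.17 to 5.19).

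**Figure D5:**
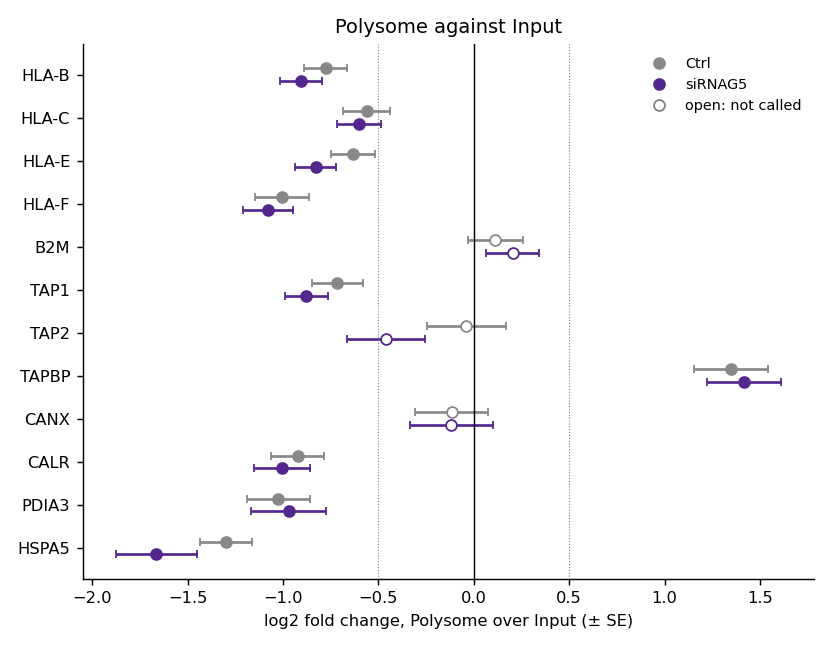
Log2 fold change of Polysome over Input with its SE (horizontal axis) in Ctrl and in siRNAG5 cells for the class I presentation genes and 4 chaperones. Filled points are called genes and dotted lines mark 0.5 in either direction. HLA-B, HLA-C, HLA-E, HLA-F and TAP1 lie between -1.08 and -0.56, and TAPBP at 1.35 and 1.42.

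Without the 2 Input Ctrl libraries that held liver reads, the same 6 genes were called between the fractions of Ctrl cells, with HLA-F at -0.96, HLA-B at -0.79, TAP1 at -0.63, HLA-E at -0.62, HLA-C at -0.59 and TAPBP at 1.49. All 4 Polysome Ctrl libraries held liver reads, so this fit sets Input without them against Polysome with them. Of the 14 liver genes 13 were then called higher in Polysome Ctrl, against 0 with all Input Ctrl libraries. Liver reads and fraction therefore cannot be told apart in this fit. In siRNAG5 cells, where liver genes summed to at most 1.26 CPM, the same 6 genes were called. Scaling was by TMM, so each value is relative to the bulk of the mRNAs in the same fraction.

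The other genes of the pathway were then taken list by list. Over all genes tested, 10.5% were called higher and 6.02% lower in Input, and 3.95% higher and 4% lower in Polysome, which is the background for each count. Of 11 further class I and class I-like genes, 7 were tested in Input, where 0 were called higher and 1 lower (median log2 FC 0.29). MICA, a stress-induced ligand of the NKG2D receptor that binds no light chain, fell from 31.9 ± 3.43 to 16.8 ± 2.58 CPM in Input (log2 FC -0.91, SE 0.11, adjusted p = 7.85e-08) and from 21.4 ± 4.85 to 10.4 ± 1.28 CPM in Polysome (log2 FC -1, SE 0.19, adjusted p = 0.0134). It was the only gene of its list called in Polysome, where 7 were tested.

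Among 12 genes of peptide loading, folding and trimming, 10 were tested in Input and 11 in Polysome, and in each fraction 0 were called higher and 1 lower, BCAP31 (median log2 FC 0.14 and -0.18). BCAP31, an endoplasmic reticulum protein that takes part in the export of membrane proteins including class I molecules, fell from 471 ± 28.7 to 296 ± 10.9 CPM in Input (log2 FC -0.66, SE 0.06, adjusted p = 2.27e-09 by edgeR) and had a log2 FC of -0.88 (SE 0.16, adjusted p = 0.0114) in Polysome. CALR, the chaperone calreticulin of the peptide-loading complex, went from 633 ± 35.6 to 459 ± 14.5 CPM in Input (log2 FC -0.45, SE 0.06, adjusted p = 8.93e-07), short of the fold required. Without the 2 Input Ctrl libraries with liver reads, CALR and BCAP31 were called lower in Input and ERAP2, a trimming peptidase of low read count, higher. Between the fractions 4 genes of this list were called lower in Ctrl and in siRNAG5 cells (against 18.8% and 21.2% of all genes), namely CALR (-0.92 and -1.01), PDIA3 (-1.02 and -0.97), HSPA5 (-1.30 and -1.66) and BCAP31 (-0.56 and -0.74), and 0 higher, with CANX at -0.12 in both.

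Of 6 genes of the immunoproteasome and the proteasome activator, 5 were tested in Input and 4 in Polysome, and in each fraction 1 was called higher and 1 lower (median log2 FC 0.09 and -0.05). PSMB9, an inducible catalytic subunit whose gene shares a bidirectional promoter with TAP1, rose from 2.94 ± 0.272 to 6.19 ± 0.927 CPM in Input (log2 FC 1.08, SE 0.17, adjusted p = 5.98e-06 by edgeR) and from 2.42 ± 0.924 to 5.89 ± 1.41 CPM in Polysome (log2 FC 1.33, SE 0.30, adjusted p = 0.0238). PSME3, an activator subunit of the nucleus that is not induced with the others, fell from 136 ± 11.4 to 84.8 ± 7.20 CPM in Input (log2 FC -0.66, adjusted p = 4.12e-08) and had a log2 FC of -0.63 in Polysome (adjusted p = 0.0305). PSMB8, another inducible subunit, had 3 reads in Input Ctrl and 1 in Input siRNAG5 over the 4 libraries and was not tested.

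Of 19 promoter-binding and signalling regulators 16 were tested, 0 were called in Input (median log2 FC -0.09), and 1, IRF3, was called lower in Polysome (median 0.03). Between the fractions, 5 of 16 were called higher in Ctrl and 7 of 16 in siRNAG5 cells, against 20.8% and 23.9% of all genes, and 1 lower in each. IRF3, a transcription factor of the antiviral response, went from 103 ± 4.59 to 66.3 ± 9.49 CPM in Polysome (log2 FC -0.59, SE 0.14, adjusted p = 0.0272 by edgeR).

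Of 20 interferon-stimulated genes, 10 were tested in each fraction, 5 were called higher in Input and 3 in Polysome, and 0 were called lower. Without the 2 Input Ctrl libraries with liver reads, 4 were called higher in Input, BST2 no longer among them. The median log2 FC was 0.45 in Input and 0.38 in Polysome. IFITM3 rose from 9.13 ± 0.758 to 15.5 ± 0.760 CPM in Input (log2 FC 0.77, SE 0.11, adjusted p = 1.92e-06 by edgeR), IFITM2 had a log2 FC of 0.74 and IFITM1 of 0.62, and in Polysome they were at 1.03, 0.87 and 0.91. These genes encode similar membrane proteins that restrict virus entry and are neighbours of related sequence. Reads that fit several of them are left out of the counts. How many were lost in this way was not measured, so the levels of these genes are uncertain. BST2, a tether of budding virus, had a log2 FC of 0.71 (SE 0.27, adjusted p = 0.0417) and IFI6 one of 0.52 (SE 0.10, adjusted p = 0.000172) in Input. Among those not called in Input were ISG15 at -0.13 (SE 0.13, adjusted p = 0.429) and IFIT1 at -0.20 (SE 0.15, adjusted p = 0.287). The ligands IFNB1, IFNG and IFNL1 had 0 reads in each library, and the part of interferon in these values was not tested.

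The neighbourhood of the genes was also described. Between the start of HLA-F and the end of TAPBP on chromosome 6 (29722775 to 33314284), 85 other genes were tested in Input, of which 21 (24.7%) were called higher and 5 (5.88%) lower, against 10.5% and 6.02% of all genes, with a median log2 FC of 0.20. In Polysome, 11 of 85 (12.9%) were called higher and 4 (4.71%) lower, against 3.95% and 4% of all genes, with a median of -0.01.

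Finally, the genes whose log2 CPM ran most nearly parallel to each member over the 16 libraries were listed. For HLA-B they were QARS1 (Pearson r = 0.99), EPRS1 and SERPINF1, for HLA-C GPAA1 (r = 0.986) and STARD10, for HLA-E ORC1 (r = 0.982), ACTG1 and VPS51, and for HLA-F DYNC1H1 (r = 0.975), QARS1 and DHPS. For TAP1 they were QARS1 (r = 0.963), KNTC1 and SERPINF1. For B2M they were GABARAPL2 (r = 0.953), ATG12 and DPY30, for TAPBP ABHD15 (r = 0.97), PROSER3 and CIC, and for TAP2 ERMP1 (r = 0.824), CILP2 and STK36. Between HLA-B and the members HLA-C, HLA-E, HLA-F and TAP1, r ran from 0.931 to 0.971, with TAPBP it was -0.75 and with B2M -0.29. All these values rest on 16 libraries in 4 groups and include the step between the fractions. Within groups, after the group means were removed, r between pairs of members ran from -0.85 (HLA-C and TAP2) to 0.655 (HLA-C and B2M). HLA-B and TAP1 had r = 0.395 in this way. TAP2 rested on 27 to 74 reads per library.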

How the data were processed

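The authors prepared stranded poly(A) libraries, aligned the 100-base paired reads to GRCh38 (Ensembl release 91) with STAR 2.5.3a and counted reads per gene with QoRTs. The deposited values are raw read counts per gene, 1 file per library, and the authors tested them with DESeq2. Ambiguous and multiply aligned reads are kept out of gene counts (4.14 to 7.41% ambiguous), and all HLA reads were aligned to 1 reference allele per gene, which can lower counts of heavy chains whose alleles differ.

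From these counts, genes were filtered with filterByExpr, scaled by TMM and tested with edgeR 4.0.16 by its quasi-likelihood test (R 4.3.3), with Benjamini-Hochberg adjustment over all genes tested. Calls required a log2 FC above 0.5 or below -0.5 together with an adjusted p under 0.05. Each fraction was fitted alone with 8 libraries, and the difference between fractions with 16. Depth was 11145324 to 24511299 reads on genes. Alternatives were DESeq2 1.42.0, RLE size factors, no filter, the replicate number as a block, unadjusted p, all 16 libraries in 1 fit, each library left out and, added after seeing the data, 1 surrogate variable (sva 3.50.0) and leaving out 2 Input Ctrl libraries with liver reads. Fits were tested on simulated data. Gene positions and lengths came from GENCODE release 44, and promoters from RefSeq. NLRC5 was tested with scipy 1.17.1 and figures drawn with matplotlib 3.10.9. The genes named were the 9 members, GEMIN5, the 3 non-members most correlated with each member (for HLA-C, 1 is not reported here), and up to 15 other pathway genes called in either fraction. CALR, PDIA3, HSPA5, CANX, ERAP2, PSMB8, ISG15, IFIT1 and the interferons were named beyond this rule, after their values were seen. Members and lists were chosen with earlier results of these data known.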

Additional observations from a re-analysis of the deposited data

How the results depend on the processing

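The count of members called in each comparison was the same under the planned and added alternatives, that is 0 in Input, 0 in Polysome, 0 for the difference and 6 between the fractions, except that all 16 libraries in 1 fit gave 7 in siRNAG5 cells, with TAP2. With 1 library left out it was 0 to 1 in Input (TAPBP, without Input siRNAG5 replicate 2), 5 to 6 between the fractions of Ctrl cells and 6 to 7 in siRNAG5 cells.

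Over all genes, the 1146 calls in Polysome became 2942 with unadjusted p, 1941 with DESeq2, 1766 without a filter, 2597 with all 16 libraries in 1 fit and 2999 with 1 surrogate variable, and ran from 189 (without Polysome Ctrl replicate 2) to 1523 with 1 library left out. For the difference, 0 became 789, 29 and 57 under the first of these alternatives (unadjusted p, DESeq2 and no filter) and 456 with the surrogate variable, and 0 to 1 with 1 library left out. In Input the range with 1 library left out was 1893 to 2494. The cause was not tested.

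Estimates near 0 changed sign. In Polysome, HLA-C was at -0.021 with DESeq2 and with RLE size factors and -0.028 with all 16 libraries, HLA-E at 0.0072 without a filter and B2M at 0.016 with the surrogate variable. For the difference, B2M was at -0.00030 and TAPBP at 0.0021 with the surrogate variable, and TAPBP at 0.031 with DESeq2 and RLE, 0.039 without a filter and 0.020 with the block. With 1 library left out, the Polysome estimates ran from -0.050 to 0.088 for HLA-C, -0.078 to 0.038 for HLA-E and -0.14 to 0.070 for B2M, those of the difference from -0.075 to 0.12 for B2M and -0.10 to 0.21 for TAPBP, and those between the fractions from -0.12 to 0.021 for TAP2 in Ctrl and -0.18 to 0.33 for NLRC5 in siRNAG5 cells. None of these was called.

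With the length of the longest coding transcript, Input Ctrl levels were 279 for HLA-C, 379 for B2M, 58.6 for HLA-B, 24.5 for HLA-E, 16.9 for HLA-F, 7.56 for TAP1, 0.777 for TAPBP, 0.481 for TAP2 and 0.0319 RPKM for NLRC5.

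Replicate numbers were not taken to pair the samples. Correlations of same-numbered deviations ran from -0.53 to 0.48 between the Polysome groups and -0.03 to 0.07 between the Input groups. Between Input and Polysome they ran from -0.07 to 0.19 in Ctrl and -0.21 to 0.22 in siRNAG5 cells. Differently numbered libraries were not compared in this way, so these ranges cannot show whether equal numbers pair the samples. The paper takes both fractions of a sample from 1 lysate, but the labels do not say that equal numbers mark it. The replicate block gave 1002 calls in Polysome and 2313 in Input and changed no member's call in any of the 5 comparisons. NLRC5 had at most 15 reads per library and was left out by the filter in most comparisons.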
